A study of Mus musculus with 6 samples.

Results

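The genes described are the secreted products of Paneth cells, the granule-filled epithelial cells at the base of small intestinal crypts, measured in mouse ileum on Affymetrix Mouse Genome 430A 2.0 arrays. They were taken as every probe set that the platform annotation assigns to Lyz1, Lyz2, Mmp7, Itln1, Pla2g2a, Mptx1 or an alpha-defensin gene (symbol starting Defa). This rule gave 11 probe sets of 22626 on the array, naming 10 genes. Of these, 3 probe sets were for Lyz1, 3 for alpha-defensins and 1 for each of the other genes. A probe set, the unit of the array, is a group of short probes read together as 1 signal.

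The 6 arrays formed 3 groups of 2, all from wild type males of mixed strain (C57BL/6:129Sv) that were 8 to 10 months old. Sham_Vehicle mice had a sham operation, in which the bile duct was freed but not tied, and received vehicle. In BDL_Vehicle mice the duct was tied (bile duct ligation), so that bile does not reach the gut, and vehicle was given. BDL_GW4064 mice had the same ligation and were given GW4064, which activates the nuclear receptor FXR in place of bile acids, by gavage at 100 mg/kg/day, begun 2 days ahead of the operation and kept up for the 5 days that followed. Vehicle was gavaged on the same schedule. The question was how this receptor bears on defence against bacteria in the small intestine. The labels do not say that a group's arrays were of different mice, so the p-values cover no more than the spread among these samples, and that spread may be technical.

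Paneth cells store antimicrobial proteins in granules and release them into the crypt lumen in response to bacteria and nerve signals. Alpha-defensins, called cryptdins in mice, are small cationic peptides made as inactive precursors, and the protease Mmp7 (matrilysin) cuts them into the active form. Lysozyme cleaves the peptidoglycan of bacterial walls, secretory phospholipase A2 (Pla2g2a) attacks bacterial phospholipids, and intelectin (Itln1) is a lectin that binds microbial sugars. Wnt signalling through beta-catenin and TCF factors drives Paneth cell maturation, and both Mmp7 and cryptdin genes are known to depend on it.

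Lyz1 (on 1436996_x_at and 1439426_x_at) and Itln1 were bright in all 6 arrays, including those of ligated mice. So were the alpha-defensin probe sets annotated to Defa31 and to Defa30 and Defa24. Another Lyz1 probe set, 1450822_at, read only 49.7 to 125.7. Of the 10 probe sets that could be tested, limma called 0 after ligation (BDL_Vehicle against Sham_Vehicle), 0 with GW4064 (BDL_GW4064 against BDL_Vehicle) and 0 from Sham_Vehicle to BDL_GW4064, at an adjusted p below 0.05. Of all 13575 probe sets tested it called 0.0295%, 0.0516% and 0.0368% in the same order. At an unadjusted p below 0.05 the members counted 2, 0 and 1, beside 6.37%, 7.48% and 16% of all probe sets. For 9 of these 10 members the 2 arrays of some group lay further apart than any 2 group means did, which held for 64.6% of all probe sets. Lyz2, the lysozyme gene of macrophages, was the exception. Probe set Defa3 lay below the floor of 37.1, the lowest mean signal kept for testing, in every array, and was not tested. In whole ileum, the number of Paneth cells and the RNA per cell cannot be told apart.

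Markers of gut region were checked first. Ileal Fabp6, the bile acid binding protein of enterocytes, read at least 2620.5 in every array, but it differed between groups. It read 6480.3 and 6650.7 in Sham_Vehicle, 2620.5 and 3109.5 in BDL_Vehicle, and 6691.3 and 6412.2 in BDL_GW4064. It passed after ligation (limma adjusted p = 0.0194) and with GW4064 (limma adjusted p = 0.0119). Of 7 colon genes 5 read at most 29 (Car1, Aqp8, Hoxd10, Hoxb13 and B3galt5). The other 2, Car4 and Slc26a3, read 835.9 to 1336.5 and 518.3 to 1823. Of 5 genes of the proximal small intestine 4 were above the floor on average, among them Lct at 1493 to 3581.5 and Fabp1 at 942.6 to 3514.3. Arrays differed in technical respects that touch the comparisons below. Control probes at the 5' end of 18S rRNA split the arrays into 2 sets, with 67.3 to 88.7 for Sham_Vehicle and the first BDL_Vehicle replicate and 8.6 to 13.3 for the rest. With this array set as a term, ligation rests on BDL_Vehicle replicate 1 and GW4064 on BDL_Vehicle replicate 2. Between Sham_Vehicle and BDL_GW4064 alone, array set and group cannot be told apart. The actin ratio of 3' over 5' probes was 1.73 for Sham_Vehicle replicate 2 and 1.09 to 1.22 elsewhere. The summed signal of 9 smooth muscle genes was 12432 in BDL_GW4064 replicate 2 and at most 1083 in any other array. That of 10 fibroblast and matrix genes was 3724 and 4721 in the BDL_GW4064 arrays and 1229 to 2027 in the other 4. With GW4064 all 10 were higher, with a median log2 difference of 1.49, and 1 of them, the fibronectin gene Fn1, passed (limma adjusted p = 0.0094). The part of these differences in the results was not tested, beyond the values given below for the array set and for signals centred on epithelial genes.

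Lyz1 is the Paneth cell lysozyme and Lyz2 the lysozyme of macrophages and granulocytes, and the 2 genes lie next to each other on chromosome 10. Their upstream sequences are shown because these neighbours share most of their proximal promoter, while their signals followed different arrays in the ileum. The 250 bases before each start site come from RefSeq (GRCm38.p6, minus strand, chr10:117292869-117293118 for Lyz1 and chr10:117282273-117282522 for Lyz2) and are written 5′ to 3′.
Lyz1: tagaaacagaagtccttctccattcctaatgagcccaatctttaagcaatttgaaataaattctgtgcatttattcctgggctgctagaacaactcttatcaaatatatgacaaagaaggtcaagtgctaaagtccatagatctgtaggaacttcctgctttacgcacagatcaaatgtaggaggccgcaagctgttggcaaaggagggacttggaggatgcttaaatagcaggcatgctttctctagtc
Lyz2: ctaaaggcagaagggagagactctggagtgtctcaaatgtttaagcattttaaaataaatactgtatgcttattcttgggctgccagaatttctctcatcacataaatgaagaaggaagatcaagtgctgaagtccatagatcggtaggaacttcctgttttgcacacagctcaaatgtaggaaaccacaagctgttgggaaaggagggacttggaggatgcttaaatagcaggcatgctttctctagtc
In a global alignment 200 of 252 positions were identical (79.4%). Capitals would mark the letters TATAAA on the strand shown or ATCAAAG on either strand, and neither is in these windows.

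Lyz1 was read by 3 probe sets, which disagreed in direction and in the level of signal. On 1436996_x_at the signal was 5878.4 and 4758 in Sham_Vehicle, 5677.2 and 5621.7 in BDL_Vehicle, and 5474 and 5276 in BDL_GW4064. Sham_Vehicle held both the highest and the lowest array, so the other 2 groups lay inside its range. On 1439426_x_at the signal was 5743.9 and 4947.4 in Sham_Vehicle, 5760.6 and 5337.4 in BDL_Vehicle, and 5004.2 and 5455.8 in BDL_GW4064. Here too the groups overlapped, and the lowest array was again Sham_Vehicle replicate 2. These signals were 66.4% to 89% of the highest signal on their array. Whether signals this near the top are compressed was not tested. The ending _x_at marks probe sets in which some probes may also bind other sequences.

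The third Lyz1 probe set, 1450822_at, read 125.7 and 93.8 in Sham_Vehicle, 111.8 and 49.7 in BDL_Vehicle, and 92 and 116.2 in BDL_GW4064. BDL_Vehicle replicate 2 was the low array, and the groups overlapped. After ligation the log2 difference was 0.10 ± 0.11 (SE) on 1436996_x_at (95% interval -0.17 to 0.36) and 0.06 ± 0.11 on 1439426_x_at (-0.19 to 0.31), and both intervals were narrow and held 0. On 1450822_at it was -0.51 ± 0.36 (-1.34 to 0.32). With GW4064 the same differences from BDL_Vehicle were -0.07 ± 0.11, -0.09 ± 0.11 and 0.45 ± 0.36. The 2 arrays of BDL_GW4064 lay below both of BDL_Vehicle on 1436996_x_at alone, where the nearest arrays read 5474 and 5621.7.

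Lyz2 was the member with the smallest p-value in the comparison of BDL_GW4064 with Sham_Vehicle. Its signal was 474.3 and 772.6 in Sham_Vehicle, 1126 and 781.7 in BDL_Vehicle, and 1197.1 and 988.3 in BDL_GW4064. Both Sham_Vehicle arrays lay below the 4 arrays of ligated mice, although Sham_Vehicle replicate 2 and BDL_Vehicle replicate 2 were close. The mean was 623 ± 211 (SD, n = 2 arrays) in Sham_Vehicle, 954 ± 243 in BDL_Vehicle and 1093 ± 148 in BDL_GW4064. The log2 difference after ligation was 0.63 ± 0.26 (SE, 95% interval 0.03 to 1.23, limma adjusted p = 0.7515), and it ranged from 0.28 without Sham_Vehicle replicate 1 to 0.98 without Sham_Vehicle replicate 2. GW4064 on top of ligation gave 0.21 ± 0.26 from BDL_Vehicle (-0.39 to 0.81, limma adjusted p = 0.9365). From Sham_Vehicle to BDL_GW4064 it was 0.84 ± 0.26 (0.24 to 1.44, unadjusted p = 0.0125 and limma adjusted p = 0.2157), which did not pass. It was 0.88 relative to epithelial genes and 1.37 once the array set entered the fit. Over all alternatives it lay between 0.49 and 1.37, with adjusted p from 0.179 to 1.00.

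Macrophages express Lyz2, and their other markers were read beside it. Of 14 macrophage genes on the array 12 were tested, and 8 were higher after ligation, 10 with GW4064 against BDL_Vehicle, and 12 from Sham_Vehicle to BDL_GW4064, while 0 passed the threshold. Their summed signal was 2604 to 2723 in Sham_Vehicle, 2600 to 3028 in BDL_Vehicle and 3325 to 3669 in BDL_GW4064, and none was listed at 0. The complement gene C1qc read 112.6 and 125.8, 152.7 and 148.7, and 310 and 283.1 in the same order of groups. Csf1r, the receptor for the macrophage growth factor, read 384.6 and 396.7, 503.2 and 366.3, and 555.8 and 529.7. From Sham_Vehicle to BDL_GW4064 the log2 difference was 1.29 for C1qc, 0.47 for Csf1r, 0.02 for Ctss and 0.01 for Adgre1. In BDL_Vehicle the summed macrophage signal was higher in replicate 1 (3028) than in replicate 2 (2600), as it was for Lyz2. The same held in BDL_GW4064. In Sham_Vehicle the sum was again higher in replicate 1 (2723 against 2604), whereas Lyz2 was lower there (474.3 against 772.6). The fibroblast and matrix sum was also higher in both BDL_GW4064 arrays than in the other 4. All 9 neutrophil genes on the array lay below the floor on average, with sums of 75.2 to 133.3 over all arrays. The part of macrophages, or of other cells beneath the epithelium, in the Lyz2 values was not tested.

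**Figure D1:**
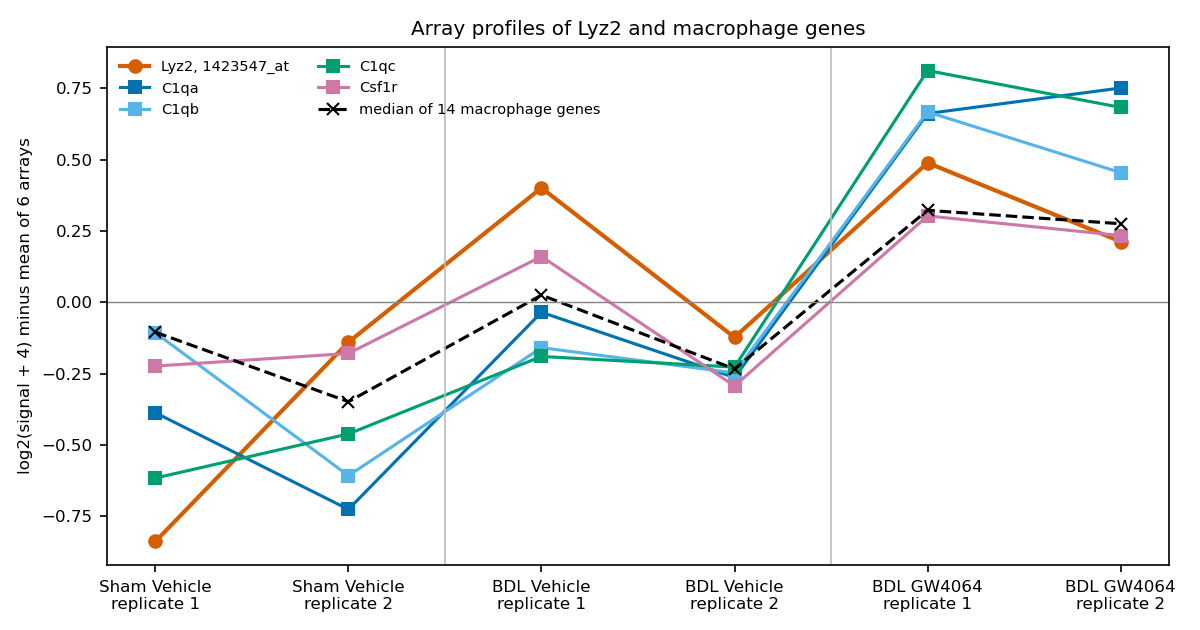
Lyz2 (thick line) and 4 macrophage genes in each array, as log2(signal + 4) minus the mean of the 6 arrays, with the median of 14 macrophage genes dashed. The macrophage median is highest in both BDL_GW4064 arrays (0.32 and 0.28), followed by BDL_Vehicle replicate 1 (0.03), and Lyz2 has its 2 highest signals in BDL_GW4064 replicate 1 (1197.1) and BDL_Vehicle replicate 1 (1126). The macrophage median is lowest in Sham_Vehicle replicate 2 (-0.35), and Lyz2 in Sham_Vehicle replicate 1 (474.3).

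RefSeq lists 28 alpha-defensin genes on mouse chromosome 8, while the array's annotation names 4 of them on 3 probe sets. Near-identical copies may share these probes, so each probe set may read a mix of genes and the values below are uncertain as to gene. The upstream 250 bases of Defa31 and Defa30 are shown because they carry the letters of the TCF/LEF core and of a TATA box (GRCm38.p6, plus strand, chr8:21191323-21191572 and chr8:21134400-21134649). Capitals mark ATCAAAG, searched on both strands, and TATAAA, searched on the strand shown.
Defa31: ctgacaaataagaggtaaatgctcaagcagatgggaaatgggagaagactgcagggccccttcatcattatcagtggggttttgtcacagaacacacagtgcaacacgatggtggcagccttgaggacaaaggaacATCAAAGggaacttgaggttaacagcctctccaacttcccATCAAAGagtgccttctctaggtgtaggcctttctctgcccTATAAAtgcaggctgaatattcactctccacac
Defa30: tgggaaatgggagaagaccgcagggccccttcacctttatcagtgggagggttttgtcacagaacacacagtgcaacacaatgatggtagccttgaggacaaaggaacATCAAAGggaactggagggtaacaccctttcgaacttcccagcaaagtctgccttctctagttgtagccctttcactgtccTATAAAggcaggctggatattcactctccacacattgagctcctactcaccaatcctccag
The first matches begin 114 and 142 bases before the start of Defa31 and Defa30, and Defa31 has another at 74. In a global alignment of the Defa31 and Defa30 windows 199 of 281 positions were identical (70.8%). The whole Defa31 window is identical to that of Defa23, a name that RefSeq also gives as a synonym of Defa31. ATCAAAG is in 13 of the 16 alpha-defensin windows of this table (81.2%) and in 3.21% of all 32851 windows of the same length, and TATAAA is in 15 of 16 (93.8%) and 7.59%. The defensin windows are copies of each other and not independent. For Mmp7, ATCAAAG lies just after its first start site, 4 bases downstream. The inverted repeat that FXR is known to bind, AGGTCA and TGACCT with any 1 base between them, searched on both strands, is in none of the windows of Lyz1, Lyz2, Itln1, Mptx1, Mmp7, Defa30 and Defa31, and in 0.00609% of all windows. A match or its absence describes the letters alone.

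The Defa31 probe set, 1422934_x_at, read 4305.5 and 3317.9 in Sham_Vehicle, 3710.2 and 5301 in BDL_Vehicle, and 5651.4 and 4138.8 in BDL_GW4064. The group means were 3812 ± 698, 4506 ± 1125 and 4895 ± 1070 (SD, n = 2 arrays), and every pair of groups overlapped. The probe set annotated to Defa30 and Defa24, 1450631_x_at, read 5032.8 and 4567.3 in Sham_Vehicle, 5981.8 and 4459.2 in BDL_Vehicle, and 5078.9 and 5497.3 in BDL_GW4064. BDL_Vehicle held both its highest and its lowest array. These bright signals were 49.9% to 80.4% and 67.4% to 92.4% of the highest on their array as well. Defa3, on 1422802_at, read 2.4 to 23.1, and whether sequence variants of the 2 strains bear on that low signal was not tested.

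After ligation the log2 difference was 0.23 ± 0.22 (SE) for Defa31 (95% interval -0.27 to 0.73) and 0.11 ± 0.14 for Defa30 and Defa24 (-0.23 to 0.44). With GW4064 against BDL_Vehicle it was 0.12 ± 0.22 (-0.38 to 0.63) and 0.03 ± 0.14 (-0.30 to 0.37). No change of alpha-defensin signal as large as 2-fold was inside these intervals. From Sham_Vehicle to BDL_GW4064 the Defa31 difference was 0.36 ± 0.22 (limma adjusted p = 0.450) and that of Defa30 and Defa24 was 0.14 ± 0.14 (limma adjusted p = 0.655). For Defa30 and Defa24 both arrays of BDL_GW4064 lay above both of Sham_Vehicle, by a small margin (5078.9 against 5032.8). Once the array set entered the fit their difference was 0.56 (limma adjusted p = 1.00). The median of the 2 alpha-defensin probe sets was 0.17 after ligation, 0.08 with GW4064 and 0.25 from Sham_Vehicle to BDL_GW4064, beside medians of -0.01, -0.01 and 0.00 over all probe sets tested. The sign for Defa31 turned in all 3 comparisons once the array set entered the fit (-0.03, -0.13 and -0.16).

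Mmp7, the protease that activates cryptdins, read 934.6 and 583.4 in Sham_Vehicle, 1583.6 and 745.5 in BDL_Vehicle, and 689.3 and 1393.3 in BDL_GW4064. BDL_Vehicle replicate 1 and BDL_GW4064 replicate 2 were high, and each of these groups had a low array beside the high one. Within BDL_Vehicle the arrays differed by 1.08 on the log2 scale and within BDL_GW4064 by 1.01, against 0.55 for the largest difference between group means. The log2 difference after ligation was 0.55 ± 0.43 (SE, 95% interval -0.44 to 1.55, limma adjusted p = 0.8184), and with GW4064 it was -0.15 ± 0.43 (-1.15 to 0.85, limma adjusted p = 0.9778). Without BDL_Vehicle replicate 1 the ligation difference was 0.01, and without replicate 2 it was 1.10. A change of 2-fold in Mmp7 was not detectable with 2 arrays per group and this spread. The GW4064 difference turned to 0.39 once the array set entered the fit.

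Itln1, the Paneth and goblet cell lectin, read 4689.8 and 4038.7 in Sham_Vehicle, 4554 and 3317.6 in BDL_Vehicle, and 4329.3 and 4776 in BDL_GW4064. BDL_Vehicle replicate 2 was its low array, and the groups overlapped. The log2 difference was -0.16 ± 0.16 (SE) after ligation (95% interval -0.53 to 0.20) and 0.23 ± 0.16 with GW4064 (-0.14 to 0.59), and 0.06 ± 0.16 from Sham_Vehicle to BDL_GW4064. The sign after ligation turned once the array set entered the fit (0.07). Intelectin gene number differs between the strains of this background, and whether further copies contributed to this signal was not tested.

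Pla2g2a had the largest range of the members tested, from 130 to 523, or 4.02-fold. It read 200.9 and 130 in Sham_Vehicle, 523 and 236.6 in BDL_Vehicle, and 180.2 and 425.3 in BDL_GW4064. Both BDL_Vehicle arrays lay above both Sham_Vehicle arrays, and BDL_GW4064 spanned the gap. The mean was 165 ± 50.1, 380 ± 203 and 303 ± 173 (SD, n = 2 arrays) in the same order. After ligation the log2 difference was 1.10 ± 0.47 (SE, 95% interval 0.01 to 2.20, unadjusted p = 0.049 and limma adjusted p = 0.7515), which did not pass. Without BDL_Vehicle replicate 1 it was 0.54, and without replicate 2 it was 1.67. With GW4064 it was -0.34 ± 0.47 (-1.44 to 0.76), and 0.23 once the array set entered the fit. RefSeq, whose assembly is of C57BL/6J, lists Pla2g2a as a transcribed pseudogene, since its reading frame is broken in that strain. The signal therefore reads a transcript and says nothing of the enzyme, and the sources used here do not say which alleles these mice carried.

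Mptx1, a mucosal pentraxin related to C-reactive protein, read 755.3 and 1023.3 in Sham_Vehicle, 1444.1 and 576 in BDL_Vehicle, and 1323.7 and 1094.3 in BDL_GW4064. BDL_Vehicle contained both the highest and the lowest array, 1.32 apart on the log2 scale. Both arrays of BDL_GW4064 lay above both Sham_Vehicle arrays. That log2 difference was 0.45 ± 0.38 (SE, 95% interval -0.42 to 1.33, limma adjusted p = 0.5815). It was 0.05 ± 0.38 after ligation and 0.40 ± 0.38 with GW4064. Once the array set entered the fit the 3 differences were 1.77, 0.71 and 1.06, none of which passed, and the first lay outside the interval above.

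**Figure D2:**
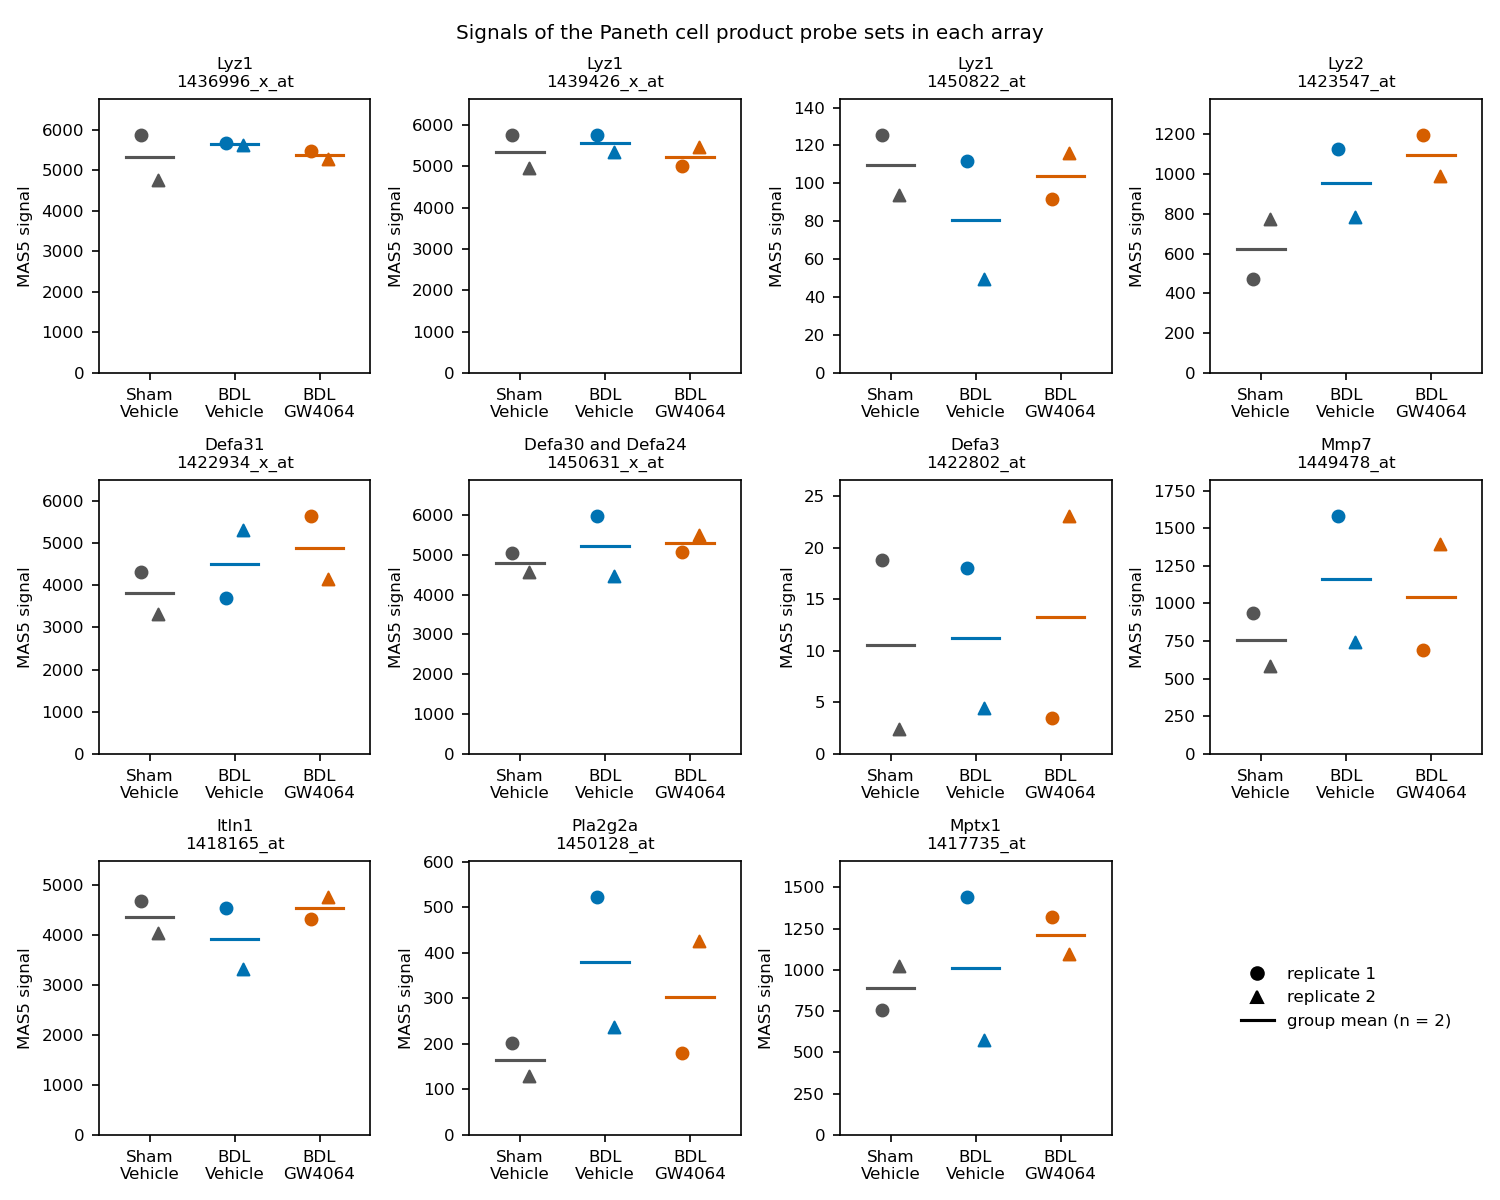
MAS5 signal of each of the 11 probe sets in each array on a linear axis from 0, with replicate 1 as a circle, replicate 2 as a triangle and the mean of 2 arrays as a line. The arrays of BDL_Vehicle and BDL_GW4064 lie far apart for Mmp7 and Pla2g2a, and the bright Lyz1 probe sets stay between 4758 and 5878.4.

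Over the members, the 2 with an unadjusted p below 0.05 after ligation were Lyz2 and Pla2g2a. They were also the 2 of 10 whose arrays did not overlap, beside 36.9% of all probe sets. Values were higher in 8 members and lower in 2, with a median log2 difference of 0.10, while 48.3% of all probe sets were higher.

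With GW4064 the arrays did not overlap for 1 member, Lyz1 on 1436996_x_at, beside 35.5% of all probe sets. Values were higher in 6 members and lower in 4, with a median of 0.08, while 47.9% of all probe sets were higher. From Sham_Vehicle to BDL_GW4064, Lyz2 was the 1 member with an unadjusted p below 0.05, and 3 members (Lyz2, Mptx1 and Defa30 with Defa24) did not overlap, beside 50.1%. Here 8 were higher and 2 lower, with a median of 0.25, while 50.2% of all probe sets were higher. These comparisons share groups, so their values are not independent. The members are not all separate genes either, since several are probe sets of Lyz1.

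The 95% interval excluded a change of 2-fold in either direction for 6 of 10 members in each comparison, and for 84.6%, 84.7% and 78.5% of all probe sets in the same order. It excluded a 1.41-fold change for both bright Lyz1 probe sets and for Defa30 and Defa24 in each comparison. Itln1 met that limit as well from Sham_Vehicle to BDL_GW4064. These were 3, 3 and 4 of 10 members, beside 27.2%, 28.3% and 22.2% of all probe sets. These limits are of the signal. The bright probe sets read near the top of their arrays, and whether such signals are compressed was not tested. The limits hold for the fit without the array set. With it, Defa30 and Defa24 differed by 0.56 from Sham_Vehicle to BDL_GW4064, beyond that limit. Intervals were widest for Mmp7 and Pla2g2a.

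**Figure D3:**
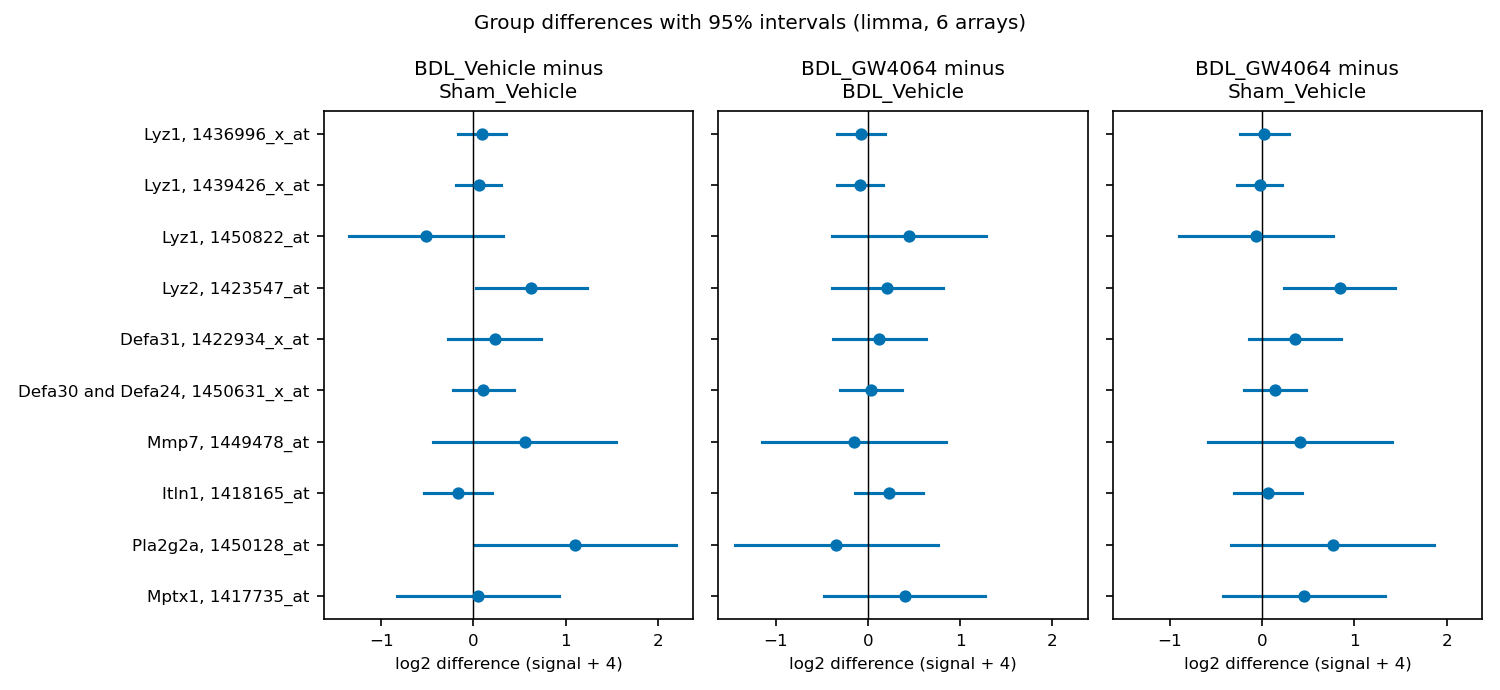
Log2 differences of the 10 tested probe sets in the 3 comparisons, with 95% intervals from limma on 6 arrays and a vertical line at 0. Intervals are narrowest for the bright Lyz1 probe sets and Defa30 and Defa24, wider for Defa31, and widest for Mmp7 and Pla2g2a.

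Several members shared an order of arrays that the groups do not give. Mmp7 and Pla2g2a had their highest signal in BDL_Vehicle replicate 1, their next in BDL_GW4064 replicate 2 and their lowest in Sham_Vehicle replicate 2. The probe set of Defa30 and Defa24 shared the 2 highest arrays, but its lowest was BDL_Vehicle replicate 2. Defa31 went another way, highest in BDL_GW4064 replicate 1 and BDL_Vehicle replicate 2. In BDL_Vehicle, 9 of 10 members were higher in replicate 1, beside 54% of all probe sets, and the median size of the difference between its arrays was 0.52 for the members and 0.21 for all probe sets. Sham_Vehicle had 8 of 10 higher in replicate 1, beside 53.1%, and BDL_GW4064 4 of 10, beside 47.2%.

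Genes of cycling crypt cells, by their median, had the same order of arrays as Pla2g2a. The median of 9 cycling cell genes, relative to the mean of all arrays, was 0.33 in BDL_Vehicle replicate 1 and 0.28 in BDL_GW4064 replicate 2, the same 2 arrays that were highest for Mmp7. The lowest value was -0.45, in Sham_Vehicle replicate 2, whose actin ratio stood apart. Their summed signal was 1929 to 2302 in Sham_Vehicle, 2542 to 3060 in BDL_Vehicle and 2017 to 3037 in BDL_GW4064. Stem cell genes had another order below the top. The median of 7 was 0.29 in BDL_Vehicle replicate 1, 0.25 and -0.07 in Sham_Vehicle, 0.05 in BDL_GW4064 replicate 2, -0.15 in BDL_Vehicle replicate 2 and -0.33 in BDL_GW4064 replicate 1. The part of crypt content in these values was not tested.

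**Figure D4:**
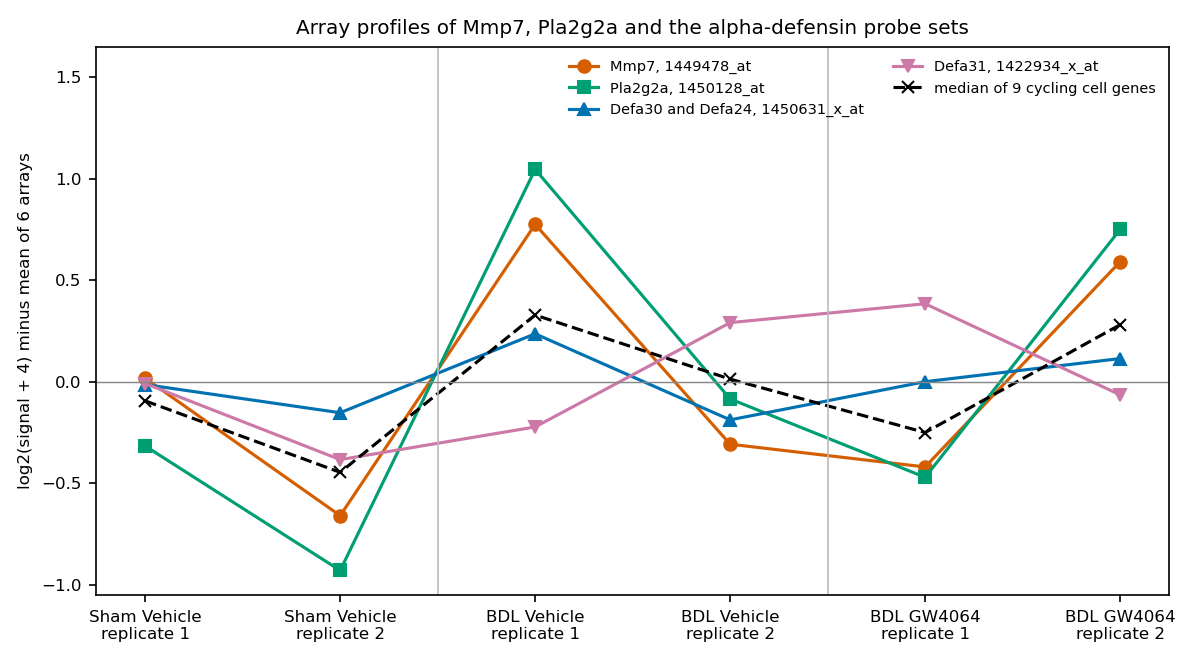
Log2(signal + 4) minus the mean of the 6 arrays for Mmp7, Pla2g2a and the 2 bright alpha-defensin probe sets, with the median of 9 cycling cell genes dashed and groups parted by vertical lines. Mmp7, Pla2g2a and the cycling genes peak in BDL_Vehicle replicate 1 and BDL_GW4064 replicate 2, whereas Defa31 peaks in BDL_GW4064 replicate 1.

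The probe sets of other genes most like the mean alpha-defensin profile were those of Clstn1, Ogfr, Itgb2, Spin1 and Epsti1, with Pearson correlations of 0.992 to 0.998 over 6 arrays. The mean shares its highest array (BDL_GW4064 replicate 1) and its lowest (Sham_Vehicle replicate 2) with Defa31, which varied more than Defa30 and Defa24. For Mmp7, in a comparison chosen after its values were seen, they were Ica1, Eif2s3x, Nip7, Ncaph and Aurkb (0.988 to 0.999). With 13575 probe sets and 6 arrays, these values are a description.

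Other genes that mark Paneth cells were not called either. Of a list of 11 Paneth genes, 9 were on the array, among them 5 members, and 0 passed in any comparison. Pnliprp2, a lipase, had a log2 difference of 0.74 with GW4064 (limma adjusted p = 0.426) and -0.41 after ligation. The hyaluronan-binding protease Habp2 read 57.8 and 6.4 in Sham_Vehicle, 81.3 and 41.8 in BDL_Vehicle, and 71.3 and 56.9 in BDL_GW4064, so its low value came from Sham_Vehicle replicate 2. Cd24a, a surface glycoprotein of Paneth and crypt cells, had -0.29 after ligation and 0.02 with GW4064.

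Genes of Paneth cell fate, secretion and autophagy were measured for 18 of 24 listed. After ligation 7 were higher and 11 lower, and with GW4064 8 and 10, with 0 called in either direction and medians of -0.08 and -0.01. Tcf7l2, the TCF factor of Wnt signalling, read 309.6 and 362.6 in Sham_Vehicle, 332.7 and 279.8 in BDL_Vehicle, and 135.1 and 236.4 in BDL_GW4064. Both BDL_GW4064 arrays were below the other 4, with a log2 difference from BDL_Vehicle of -0.76 ± 0.26 (SE, limma adjusted p = 0.526) and from Sham_Vehicle of -0.89 ± 0.26 (limma adjusted p = 0.203). Myd88, the adaptor through which Paneth cells sense bacteria, had 0.44 ± 0.17 from Sham_Vehicle to BDL_GW4064 (limma adjusted p = 0.279). Kcnn4, a potassium channel gene of Paneth cells, had 0.40 ± 0.19 after ligation (limma adjusted p = 0.7515).

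Of 8 genes of crypt niche signalling, which include the receptor gene Notch1, 5 were tested and 0 passed. In each comparison 4 were lower and 1 higher, while 48.3%, 47.9% and 50.2% of all probe sets were higher. The Notch ligand gene Jag1 had the largest difference, -1.36 ± 0.29 (SE) from Sham_Vehicle to BDL_GW4064 (limma adjusted p = 0.176), with 73.4 and 68.5 in Sham_Vehicle, 65.2 and 44.2 in BDL_Vehicle, and 21.5 and 29.5 in BDL_GW4064. The BDL_GW4064 values lie under the floor of 37.1, so this difference does not measure the size of a change. Tgfa, an EGF receptor ligand, had -0.42 ± 0.16 after ligation (limma adjusted p = 0.7515). The Notch ligand gene Dll1 had -0.57 ± 0.22 from Sham_Vehicle to BDL_GW4064 (limma adjusted p = 0.279).

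Of 19 other antimicrobial genes on the array 13 were tested, 7 were higher after ligation and 6 with GW4064, and 0 passed, with medians of 0.00 and -0.04. Rnase4, a secreted ribonuclease, had the smallest p. It read 1362.1 and 1492.3 in Sham_Vehicle, 871.7 and 618.5 in BDL_Vehicle, and 1691.1 and 2044.7 in BDL_GW4064. Both BDL_Vehicle arrays were below the other 4, with a log2 difference of -0.95 ± 0.18 (SE) after ligation (limma adjusted p = 0.437) and 1.34 ± 0.18 with GW4064 (limma adjusted p = 0.0866). Among the members, Itln1 and Lyz1 on 1450822_at had the same signs, each with groups that overlapped. Both comparisons use BDL_Vehicle, with opposite sign, so the signs are not independent. BDL_Vehicle replicate 2 was the lowest array of both members, and without it their ligation differences were 0.0654 and 0.0401.

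Goblet cells, the other secretory lineage of the crypt, served as a comparison. Of 8 tested goblet genes 1 was higher and 7 lower after ligation, with a median of -0.05, and 4 were higher and 4 lower with GW4064, with a median of 0.00. Their summed signal was 25489 to 28891 in Sham_Vehicle, 25982 to 26345 in BDL_Vehicle and 25536 to 28577 in BDL_GW4064. The 15 epithelial genes summed to 43569 to 48290 over all arrays. The 9 genes of the Paneth list summed to 13230 to 14761, 12140 to 16324 and 14426 to 15453 in the order of the groups, and the ranges overlapped.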

How the data were processed

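Total RNA of ileum was hybridised to 6 single-colour Affymetrix arrays. The deposited values were intensity values on a linear scale, made with MAS5 per the submitters' processing notes. MAS5 gives 1 background-corrected signal per probe set. The sources used here give no version, settings or detection calls. Each array had a mean of 200.1 once the top and bottom 2% were trimmed. For arrays, the number of arrays limits the precision.

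Of 22690 probe sets, 64 controls were left out, as were the lowest 40% by mean log2 signal, leaving 13575, with a floor of 37.1. The deposited intensity values were taken as log2(signal + 4). Fold changes on this scale understate those of low signals. Groups were compared with limma (version 3.58.1, R 4.3.3) over all 6 arrays with a variance trend on signal, 3 residual and 4.71 prior degrees of freedom, Benjamini-Hochberg adjustment over 13575 probe sets and a threshold of 0.05. An exact permutation test of 2 arrays against 2 cannot go below 0.333 and was not run. The fit was tested on simulated data.

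Symbols came from the platform annotation, and all 10 gene identifiers of the members were found in RefSeq (GRCm38.p6). Promoters were matched by gene identifier, and 7 of the 10 genes had one. Gene lists used their brightest probe set per gene. All member probe sets are described. From each other list, genes that passed or those with the smallest p are named, and the genes most like the alpha-defensin profile were taken by Pearson correlation. The members and lists were chosen with earlier results of these data known. Alternatives were quantile normalisation, median centring, centring on 15 epithelial genes, pseudocounts of 1 and 16, no filter or one at 60%, no trend, a robust prior, only the 4 arrays compared, the replicate number as a block, the array set as a term and each array left out.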

Additional observations from a re-analysis of the deposited data

How the results depend on the processing

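No member passed the threshold under any of 18 alternatives in any comparison, and the smallest adjusted p was 0.179 (Lyz2, Sham_Vehicle to BDL_GW4064, without BDL_Vehicle replicate 2). Of 537 member values under alternatives 496 kept their direction and 41 turned. These counts do not measure robustness, because many of the values could not turn. Changes of filter, trend or prior, the block, and fits to the compared arrays alone left each tested member's log2 difference unchanged. So did leaving out an array of the group not compared. The array set as a term gave the same differences as leaving out BDL_Vehicle replicate 2 for ligation and replicate 1 for GW4064. The cause of the 41 turns was not tested. From Sham_Vehicle to BDL_GW4064 the array set also moved Mptx1 to 1.77, Mmp7 to 1.49, Pla2g2a to 1.89, Itln1 to 0.52 and Defa30 with Defa24 to 0.56, with none passing. Once the array set entered the fit, the turned log2 differences after ligation were 0.0654 (Itln1), -0.0267 (Defa31) and 0.0401 (Lyz1 on 1450822_at). With GW4064 they were -0.13 (Defa31), 0.39 (Mmp7) and 0.23 (Pla2g2a), and from Sham_Vehicle to BDL_GW4064 -0.16 (Defa31), 0.0811 (Lyz1 on 1439426_x_at) and 1.04 (Lyz1 on 1450822_at). These values rest on BDL_Vehicle, the group that fell in both array sets. Centring on epithelial genes turned Lyz1 on 1436996_x_at with GW4064 to 0.0022 and on 1439426_x_at from Sham_Vehicle to BDL_GW4064 to 0.0086. Median centring turned Defa30 and Defa24 with GW4064 to -0.0295.

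Leaving out 1 array in turn, a lone array being assumed to vary like the other groups, gave these ranges where a sign turned or the alpha-defensin median moved. After ligation they were -0.61 to 0.71 (Mptx1), -0.39 to 0.0654 (Itln1), -0.0267 to 0.49 (Defa31), -0.0573 to 0.25, -0.0508 to 0.16 and -1.07 to 0.0401 (Lyz1 on 1436996_x_at, 1439426_x_at and 1450822_at), -0.10 to 0.32 (Defa30 and Defa24) and 0.04 to 0.30 (alpha-defensin median). Without a turn of sign they were 0.28 to 0.98 (Lyz2), 0.0135 to 1.10 (Mmp7) and 0.54 to 1.67 (Pla2g2a). With GW4064 they were -0.26 to 1.06 (Mptx1), -0.0022 to 0.45 (Itln1), -0.13 to 0.38 (Defa31), -0.0497 to 0.47 (Lyz2), -0.69 to 0.39 (Mmp7), -0.95 to 0.27 (Pla2g2a), -0.18 to 0.24 (Defa30 and Defa24) and -0.11 to 1.00 (Lyz1 on 1450822_at). From Sham_Vehicle to BDL_GW4064 they were -0.0445 to 0.17 (Itln1), -0.13 to 0.18, -0.14 to 0.0787 and -0.27 to 0.14 (Lyz1 on the same 3 probe sets), -0.10 to 0.91 (Mmp7) and 0.12 to 0.38 (alpha-defensin median).

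Counts over all probe sets, 4 after ligation, 7 with GW4064 and 5 from Sham_Vehicle to BDL_GW4064, changed as follows. Centred on epithelial genes there were 7 after ligation and 11 with GW4064. Without a filter there were 2 and 4. Without the trend there were 1, 2 and 0. The robust prior gave 12 with GW4064, median centring 3 from Sham_Vehicle to BDL_GW4064, and the array set as a term 2 with GW4064 and 0 from Sham_Vehicle to BDL_GW4064. Leaving out 1 array gave 1 to 6, 2 to 56 and 1 to 32. With the replicate number as a block there were 2, 4 and 0 probe sets and 0 members. Differences between replicate 1 and replicate 2 correlated between groups at 0.037, 0.094 and -0.119 across 13575 probe sets. With a single such difference per group, these values cannot decide whether same-numbered arrays belong together, and the labels do not say. Signals near the top of an array and a floor of 37.1 limit what a change could show.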
